A study of Saccharomyces cerevisiae with 3 samples.

Results

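RNA polymerase I (Pol I) is the enzyme that synthesizes the precursor of the large ribosomal RNAs, and in yeast it does so from the 35S gene of the rDNA repeats. Positions of this gene that end a G-rich stretch are described here. A position was counted as G-rich when G stood at 5 or more of the 10 positions that end with it, itself included, in the sense of the transcript. All but the first 9 positions of the gene had a full window, and 683 of these 6849 were G-rich. The other 6166 positions served for comparison, within the same region of the gene except where medians, shares and counts are given over several regions. The rule used only the deposited sequence and no measured value.

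Pol I occupancy was mapped by native elongating transcript sequencing (NET-seq), in which RNA still held by the purified polymerase is isolated and its 3′ end is read, so that each read marks the place of a polymerase at single-nucleotide resolution. The samples were 3 replicates of *hmo1Δ* yeast (*Saccharomyces cerevisiae*), in which *hmo1Δ::URA4* replaces the *HMO1* gene, and they were set against wild-type (WT) yeast. Both strains carry (His)7-(HA)3-*RPA135::TRP1*, which puts a tag on the Pol I subunit Rpa135 through which the polymerase was purified. Both grew at 30 °C in YEPD, with 1 culture for each replicate. For WT, whose libraries were made for another series, the authors' median per position was used, with no error of its own. A difference between the strains and one between the sets of libraries cannot be told apart.

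Hmo1 is a high mobility group protein that binds DNA and coats actively transcribed rDNA, and it has been regarded as a yeast counterpart of the human factor UBF. During elongation the newest part of the RNA is paired with the template strand inside the polymerase, and the strength of this pairing depends on the sequence just transcribed. G-rich RNA also pairs readily with template DNA behind the polymerase to form R-loops, which are known to occur in rDNA. The study asked whether the occupancy of Pol I without Hmo1 depends on such sequence. The authors state that these libraries also contain mature rRNA, so the spacers (ETS1, ITS1, ITS2 and ETS2), which are removed from the precursor, are given beside the mature 18S, 5.8S and 25S regions for the main comparisons.

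The 683 G-rich positions formed 179 stretches of consecutive positions, of which 51 were a single position. The median stretch was 3 positions long and the longest 16. Neighbouring positions share most of their window, so the positions within a stretch are not independent. 25S held 412 of the positions in 109 stretches and 18S held 170 in 41. ETS1 held 54, ITS1 19, ETS2 16, 5.8S 7 and ITS2 5. The highest number of G in a window was 7, at 21 positions, while 163 positions had 6 and 499 had 5. At each of the 10 offsets of the window, G made up 51.1% to 55.1% of the bases of the G-rich positions, against 23.2% to 23.6% at the other positions, as the rule required. The rule left the bases outside the window free. In the 10 positions before the window, U made up 26.0% of bases for G-rich positions and 28.2% for the others. A run of 3 or more G lay in 396 of the 683 G-rich windows (58.0%) and in 394 of the other windows (6.39%).

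The stretches that carry the largest differences are shown first, each as RNA from the start of its first window to its last G-rich position, 5′ to 3′, with G in capitals. They are taken from the deposited table and lie on the minus strand of chromosome XII in assembly R64-1-1, within *RDN37-2*. The first 4 had the largest rises in *hmo1Δ* and the last 4 the largest falls, among stretches that summed to 100 RPM (the deposited scaled read count) or more with all replicates on 1 side of WT.
ITS1, positions 2665 to 2667 (chrXII:464903-464914): acGGuGaGaGau
18S, positions 2206 to 2208 (chrXII:465362-465373): uGGccGaGaGGu
18S, positions 1037 to 1038 (chrXII:466532-466542): aGGauaGuGGc
ITS1, positions 2775 to 2778 (chrXII:464792-464804): cGGGGcccaGaGG
ETS1, position 554 (chrXII:467016-467025): GGcaGcaGaG
18S, position 2058 (chrXII:465512-465521): GuGGuGcuaG
ETS1, positions 290 to 291 (chrXII:467279-467289): GGauuuGGuGG
ETS1, positions 451 to 452 (chrXII:467118-467128): uGuuuGGuGGa

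Relative to WT, G-rich positions had a higher mean occupancy in *hmo1Δ* than other positions of the same region, and outside ETS1 they were also above WT more often. The deposited RPM values are read counts scaled so that the positions up to the T1 terminator sum to 1000000 in each sample. The median G-rich position held 184, 199 and 173 RPM in *hmo1Δ* replicates 1, 2 and 3, against a median of 132 RPM for the same positions in the WT column. The median of the other positions was 101, 98.8 and 95.4 RPM in *hmo1Δ* and 90.5 RPM in WT. Over the whole gene, G-rich positions thus had the higher median in both strains, and their distance from the other positions was wider in *hmo1Δ*. In 5.8S the 7 G-rich positions had the lower median in both, with 77.3 RPM against 154 RPM in WT. Of the occupancy summed over the gene, 16.5% ± 0.626 (SD, n = 3) fell on them in *hmo1Δ* and 13.8% in WT, while they make up 9.97% of positions. The share was 16.1%, 17.2% and 16.2% in replicates 1, 2 and 3, each above WT.

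For each position, the log2 ratio of *hmo1Δ* to the WT median was computed with 1 RPM added to both values, and the mean of the other positions of its region was subtracted. On this scale the G-rich positions lay 0.37 ± 0.07 above the others (SD, n = 3), which is 1.29-fold, with 0.33, 0.45 and 0.33 in replicates 1, 2 and 3. The difference was 0.44 ± 0.04 (SD, n = 3) in the spacers and 0.36 ± 0.08 in the mature rRNA regions, positive in 3 of 3 replicates in both. No test between the strains was run, since WT entered as 1 pooled value, and an exact sign-flip permutation test over 3 replicates cannot give a two-sided *p*-value under 0.25. With each stretch counted once, the spacer difference was 0.21. Among spacer positions of like *hmo1Δ* occupancy it was 0.13, and among those of like WT occupancy 0.58. Either matching uses a value that also enters the ratio.

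All 3 *hmo1Δ* replicates lay above the WT median at 399 of the 683 G-rich positions (58.4%). Over all 6849 positions the same was seen at 44.2%, and at the other positions of the same regions, weighted by where the G-rich positions lie, at 39.9%. All 3 replicates lay below WT at 143 G-rich positions (20.9%), against 37.2% of all positions. The replicates fell on both sides of WT at the remaining 141. When a position had to differ from the WT median by more than 2 of the authors' WT coefficients of variation in all 3 replicates, 280 G-rich positions (41.0%) were higher, against 30.4% of all positions, and 48 (7.03%) were lower, against 19.5%. Over all spacers, all 3 replicates were above WT at 61 of 94 G-rich positions (64.9%), close to the 65.8% of all spacer positions, and below it at 21 (22.3%), against 19.1%. ETS1 holds 54 of these 94 positions. Beyond 2 WT coefficients of variation, 56 of the 94 (59.6%) were higher, against 52.9% of all spacer positions. In the mature rRNA regions 338 of 589 G-rich positions (57.4%) were higher, against 38.2% of all positions there and 35.8% of the 4765 others. The median log2 ratio was 1.04 over the G-rich spacer positions and 0.66 over all spacer positions, and 0.26 over the G-rich mature positions against -0.03 over all mature positions. By region, the share above WT was 94.7% at G-rich positions and 79.2% at others in ITS1, 87.5% and 78.5% in ETS2, and 44.4% and 49.0% in ETS1. Single G-rich positions ranged from -2.60 to 3.87 in mean log2 ratio. A log2 ratio of 1 or more was reached at 155 of them (22.7%), against 14.5% of the other positions, and a ratio of -1 or less at 5 (0.732%), against 2.98%.

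**Figure D1:**
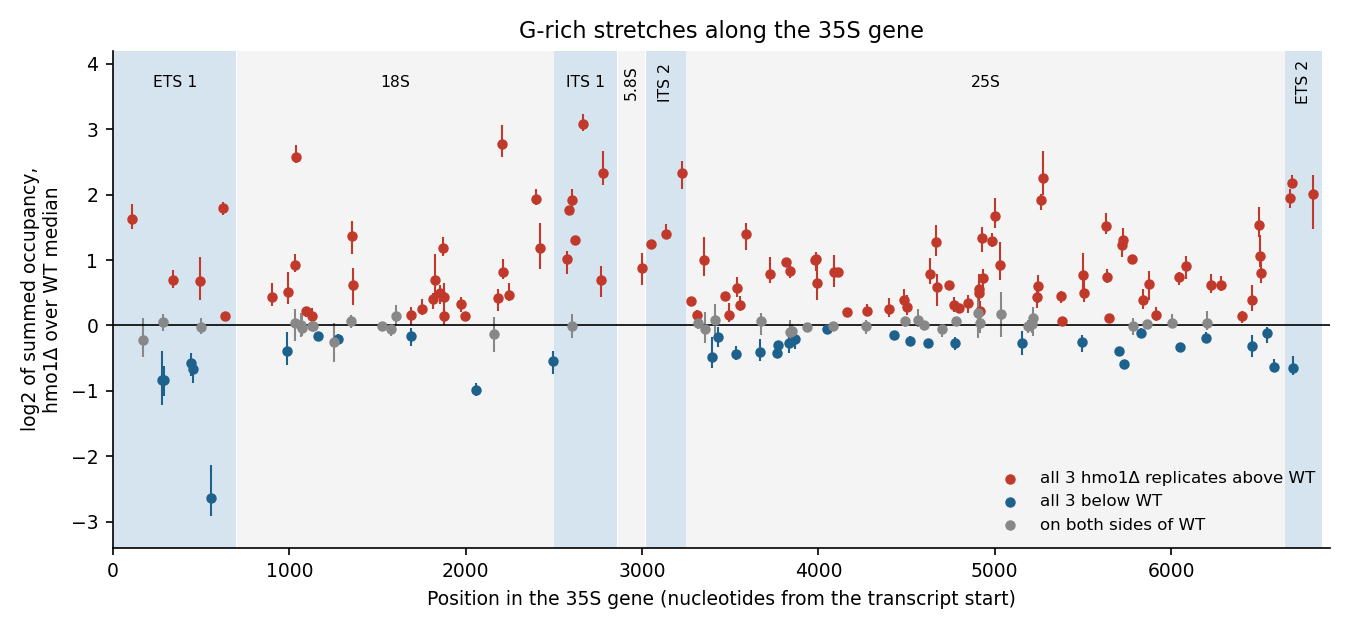
Summed occupancy of each of the 179 G-rich stretches in *hmo1Δ* over the authors' WT median (log2, vertical axis) by position in the 35S gene (nucleotides, horizontal axis), with points for the mean of 3 replicates and lines from the lowest to the highest replicate. All 3 replicates were above WT in 105 stretches and below it in 35, and the rises spread over all regions while ETS1 held 5 stretches of each kind.

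Counted by stretch, the summed occupancy was above WT in all 3 *hmo1Δ* replicates in 105 of 179 stretches, below it in 35 and on both sides in 39. Of the other single positions of the gene, 42.6% were higher and 39.0% lower. The mean log2 ratio was 1 or more in 34 stretches and -1 or less in 1. In ETS1, the spacer upstream of 18S, 5 of 13 stretches were higher and 5 lower. In ITS1 7 of 8 stretches were higher, in ITS2 3 of 3 and in ETS2 3 of 4, in spacers where 79.2%, 82.4% and 78.5% of the other single positions were higher as well. In 18S 24 of 41 stretches were higher and 6 lower, and in 25S 62 of 109 were higher and 23 lower. Of the other single positions, 30.5% were higher and 52.5% lower in 18S, and 39.0% and 40.2% in 25S. A single position is another unit than a summed stretch, and no share was computed for stretches that are not G-rich.

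The regions differed in how far the G-rich positions stood from the others. The largest difference among regions with 10 or more G-rich positions was in ITS1, the spacer between 18S and 5.8S, at 1.07 ± 0.11 on the log2 scale (SD, n = 3), where 18 of 19 G-rich positions (94.7%) had all replicates above WT, against 79.2% of the others. Its G-rich positions had a median of 138, 168 and 138 RPM in *hmo1Δ* replicates 1, 2 and 3, against 26.9 RPM in WT. Its other positions had 33.4, 32.8 and 32.7 RPM in *hmo1Δ* and 17.4 RPM in WT. ETS2, which follows 25S, gave a difference of 0.66 ± 0.13 (SD, n = 3). All its G-rich positions but position 6805 lie among the residues annotated as cleaved by Rnt1, an RNase III that cuts the precursor, so RNA ends left by Rnt1 and ends held by Pol I cannot be told apart there. 18S gave 0.44 ± 0.08 and 25S 0.32 ± 0.07. ETS1 gave the smallest, 0.16 ± 0.01, and there 24 of 54 G-rich positions had all replicates above WT. In 18S the means of the sets differed in sign, with a log2 ratio of 0.37 ± 0.08 (SD, n = 3) at G-rich positions and -0.07 ± 0.04 at the others. Single positions went both ways, since 24.1% of the G-rich ones were lower in all replicates and 30.5% of the others higher. In 5.8S the means were 0.74 ± 0.23 and -0.02 ± 0.05. 5.8S and ITS2 hold few G-rich positions. The one stretch of 5.8S, positions 2997 to 3003, had 1016, 1166 and 833 RPM in *hmo1Δ* replicates 1, 2 and 3, against 542 RPM in WT. The difference was 0.77 ± 0.25 (SD, n = 3) in 5.8S and 0.39 ± 0.05 in ITS2.

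**Figure D2:**
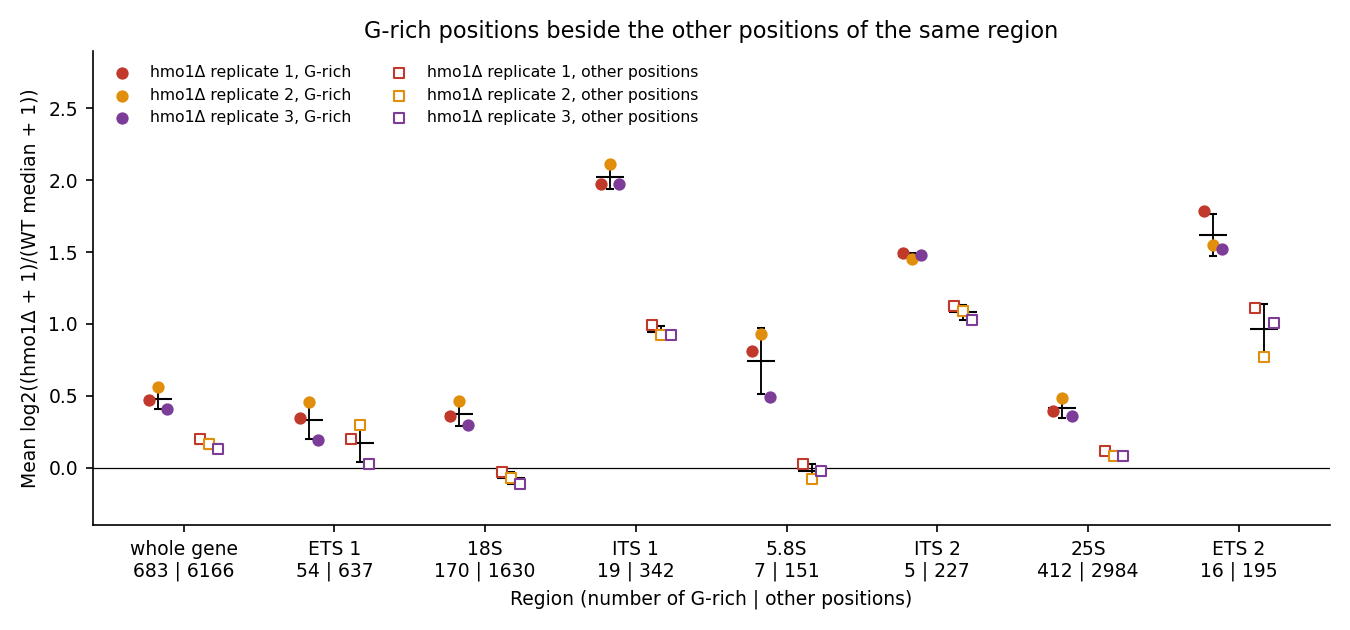
Mean log2 ratio of *hmo1Δ* to the WT median, with 1 RPM added (vertical axis), for G-rich positions (filled) and other positions (open) of the whole gene and each region (horizontal axis, with the number of positions), 1 point per replicate and bars for mean and SD over 3 replicates. In each region the G-rich mean of every replicate was above that of the other positions, least in ETS1 (0.16) and most in ITS1 (1.07).

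The change grew with the number of G in the window. Relative to the mean of the region, the log2 ratio was -0.20 ± 0.08 with no G in the window, -0.24 ± 0.06 with 1 and -0.12 ± 0.03 with 2 (SD, n = 3 for each). It was 0.04 ± 0.02 with 3 G, 0.24 ± 0.06 with 4, 0.29 ± 0.06 with 5, 0.43 ± 0.06 with 6 and 0.68 ± 0.13 with 7. The step between 4 and 5 G had 1 sign in all replicates but was smaller than the SD of either value, and the same held between 0 and 1 G, where it ran the other way. Just inside the threshold, the 499 positions with 5 G had all replicates above WT in 56.3% of cases. Just outside it, the 1159 positions with 4 G did so in 56.1%, so the threshold of 5 marks no step. The slope over all positions was 0.11, 0.17 and 0.12 per G in replicates 1, 2 and 3, with a mean of 0.13 ± 0.03 (SD, n = 3). The median occupancy in *hmo1Δ* also climbed with each G, while that in WT was highest at 6 G. It was 289 ± 42.5 RPM in *hmo1Δ* (SD, n = 3) and 152 RPM in WT at 7 G, 228 ± 13.5 RPM in *hmo1Δ* and 170.0 RPM in WT at 6 G, and 56.5 ± 2.86 RPM in *hmo1Δ* and 52.9 RPM in WT with no G. The 7 G windows belonged to 11 stretches, of which 9 were higher in all 3 replicates and none lower. Over all 179 stretches, 105 were higher and 35 lower.

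**Figure D3:**
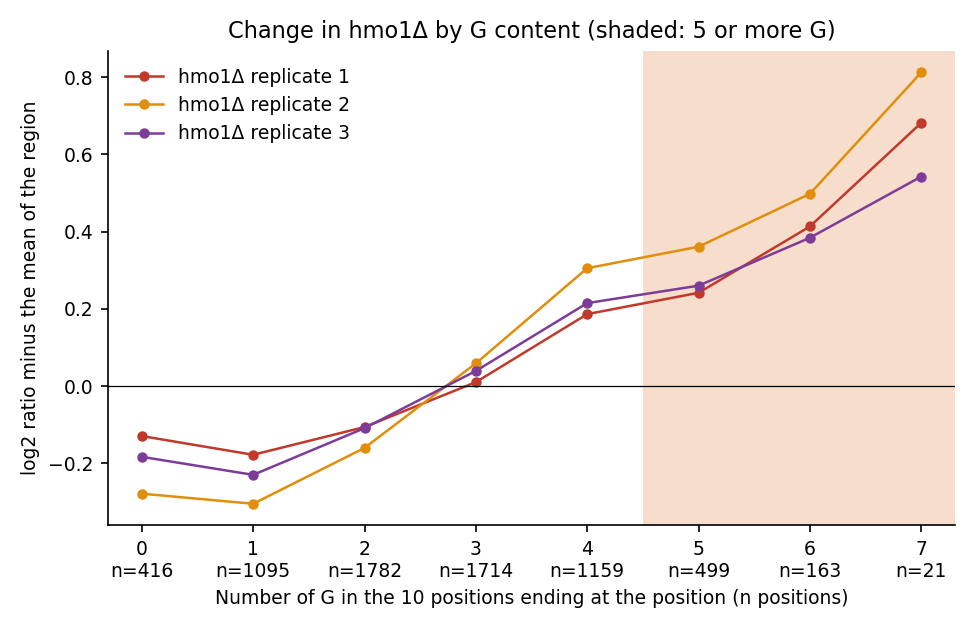
Log2 ratio of *hmo1Δ* to the WT median minus the mean of the region (vertical axis) by the number of G in the 10 positions that end at the position (horizontal axis, with the number of positions), 1 line per replicate and the G-rich range shaded. In each replicate the value climbed with each G added between 1 and 7, where the mean was 0.68.

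The place of the G in the window was then resolved offset by offset, with offset 0 for the position itself and negative offsets upstream. Positions with G at an offset were set against positions without it, within the region mean. At each offset from -10 to -1 the difference was positive in 3 of 3 replicates, and its mean over these offsets was 0.15 ± 0.04 (SD, n = 3). It was highest at offset -2, with 0.22 ± 0.04, and was 0.11 ± 0.04 at offset -10, 0.07 ± 0.03 at offset -11 and 0.02 ± 0.03 at offset -12. At offset 0 it was -0.06 ± 0.03 (SD, n = 3), negative in 3 of 3 replicates, and it was -0.04 ± 0.00 at offset 1. The mean over offsets -30 to -21 was 0.01 ± 0.01 and over offsets 1 to 10 it was 0.00 ± 0.01. In the spacers alone the difference at offsets -10 to -1 was 0.26 ± 0.04 (SD, n = 3), with its highest value of 0.45 ± 0.04 at offset -6, and at offset 0 it was -0.25 ± 0.06. Over the spacer offsets -20 to -11 it was -0.08 ± 0.02. In the mature rRNA regions it was 0.13 ± 0.04 at offsets -10 to -1 and 0.03 ± 0.03 at offsets -20 to -11, but -0.01 ± 0.03 at offset 0, with 2 of 3 replicates above 0. A G in the RNA just behind the 3′ end thus went with higher occupancy in *hmo1Δ* in both, and a G at the end itself with lower occupancy in the spacers. Since the offsets of 1 window overlap those of the next, these values are not independent of each other.

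**Figure D4:**
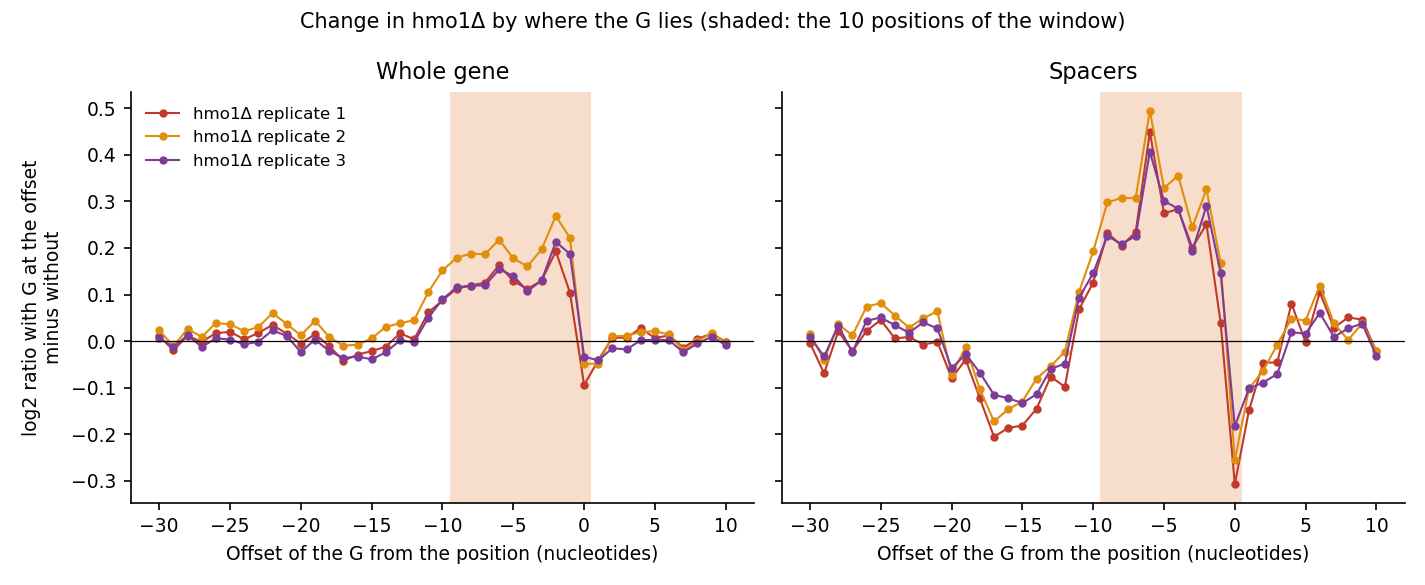
Log2 ratio of *hmo1Δ* to the WT median for positions with G at an offset minus positions without (vertical axis), by offset from the position (nucleotides, horizontal axis), over the whole gene and in the spacers, 1 line per replicate, with the window of the rule shaded. The lines are raised from offset -10 to -1 (mean 0.15 over the whole gene, 0.26 in the spacers) and below 0 at offset 0.

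The G-rich positions were also split by their last base. Those with G as the last base, 363 positions, stood 0.27 ± 0.06 above the other positions of their region on the log2 scale (SD, n = 3), against 0.44 ± 0.08 for the 127 that ended in A, 0.52 ± 0.11 for 86 that ended in C and 0.51 ± 0.12 for 107 that ended in U. The rule asks for fewer G before a last base that is itself G, and this was not matched. What the last base itself goes with is thus not shown by this split. G-rich positions that ended in A were also the most occupied in WT, with a median of 258 RPM, against 113 to 124 RPM for the other bases. A longer run of G did not go with a steady rise. The difference was 0.42 ± 0.07 (SD, n = 3) where the longest run was 2, 0.27 ± 0.07 where it was 3 and 0.39 ± 0.07 where it was 4. It was 0.74 ± 0.14 at the 28 positions, in 6 stretches, where the longest run was 5. At the 10 positions, in 2 stretches, with a run of 6 it was 0.57 ± 0.16. Where no 2 G were adjacent, at 7 positions, it was -0.03 ± 0.03.

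A U-rich stretch before the G-rich one, another part of the study's question, gave no constant direction among the G-rich positions. The paper compared sequences at the most occupied spacer positions of each strain, which is another measure than this split. G-rich positions with U at 4 or more of the 10 positions before the window, 175 positions, stood 0.13 ± 0.01 higher on the log2 scale than the other 508 (SD, n = 3). The same difference was 0.18 ± 0.02 in the mature rRNA regions but -0.18 ± 0.07 in the spacers, where 25 positions in 11 stretches had the U-rich stretch and 69 had not. Among positions with 6 or more G the difference was 0.01. Over all spacer positions, G-rich or not, U at offsets -20 to -11 went with a log2 difference of 0.10 ± 0.03 (SD, n = 3). In the mature rRNA regions it went with 0.02 ± 0.01, and both were positive in each replicate.

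Positions ending a stretch rich in another base were set against their own regions in the same way. The 939 U-rich positions differed from the others by -0.37 ± 0.10 on the log2 scale (SD, n = 3), as far below as the G-rich positions stood above, and the 793 A-rich positions gave -0.03 ± 0.06. The 148 C-rich positions gave 0.05 ± 0.08 over the whole gene, with replicates on both sides of 0, but 0.71 ± 0.08 at the 8 of them that lie in the spacers, higher than the G-rich value there. Of the G-rich positions, 8 were also U-rich, 5 A-rich and 0 C-rich.

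Around the last position of the 97 stretches of 3 or more positions, the region-centred log2 ratio was -0.11 ± 0.00 (SD, n = 3) at 10 nucleotides before it, 0.42 ± 0.09 at 1 before it and 0.35 ± 0.10 at the last position. It fell off to 0.10 ± 0.05 at 3 nucleotides after it, was 0.24 ± 0.06 at 5 after it and was 0.00 ± 0.06 at 9 after it. Further on it was between -0.07 ± 0.04, at 14 after it, and 0.09 ± 0.04, at 17 after it.

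The 4 stretches with the largest rises, whose sequences are given above, were chosen among those with all replicates on 1 side of WT, so that their direction is a description. Positions 2665 to 2667 in ITS1 summed to 870, 1041 and 906 RPM in *hmo1Δ* replicates 1, 2 and 3, against 111 RPM in WT, which is 8.48-fold. Positions 2206 to 2208 in 18S held 634, 827 and 590 RPM in *hmo1Δ*, against 98.7 RPM in WT, and positions 1037 to 1038 in 18S held 725, 872 and 722 RPM in *hmo1Δ*, against 129 RPM in WT. Positions 2775 to 2778 in ITS1 held 675, 951 and 665 RPM in *hmo1Δ* and 150 RPM in WT. Replicate 2 was the highest at each of these stretches. The folds of the last 3 were 6.93, 5.99 and 5.09. The 15 positions after the ITS1 stretches were raised as well, 2.68-fold after position 2667 and 3.02-fold after position 2778, as ITS1 is as a whole. In 18S the 15 positions before position 2206 held 1.49-fold the WT occupancy. The 15 after position 2208 held 1.40-fold, with 3 of 3 replicates above WT on both sides. The 15 positions after position 1038 held 1.05-fold the WT occupancy, with 1 replicate below WT. The rise there began before the stretch, since position 1036, which is not G-rich, had 578, 623 and 587 RPM in *hmo1Δ* and 115 RPM in WT.

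The 4 largest falls were smaller, apart from the first. Position 554 in ETS1 had 28.6, 29.7 and 48.7 RPM in *hmo1Δ* replicates 1, 2 and 3, against 215 RPM in WT, a 6.01-fold fall. The 15 positions after it summed to 1512, 1548 and 1358 RPM in *hmo1Δ*, while WT had 511 RPM there, and the 15 before it were 1.38-fold higher. The fall at position 554 therefore does not describe the level of that part of ETS1. Position 2058 in 18S had 149, 143 and 164 RPM in *hmo1Δ* and 302 RPM in WT. Positions 290 to 291 in ETS1 held 78.4, 95.8 and 108 RPM in *hmo1Δ*, against 166 RPM in WT, and positions 451 to 452 held 80.0, 102 and 98.9 RPM, against 147 RPM in WT. The 15 positions after both ETS1 stretches were higher in *hmo1Δ*, 2.04-fold after position 291 and 1.92-fold after position 452.

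**Figure D5:**
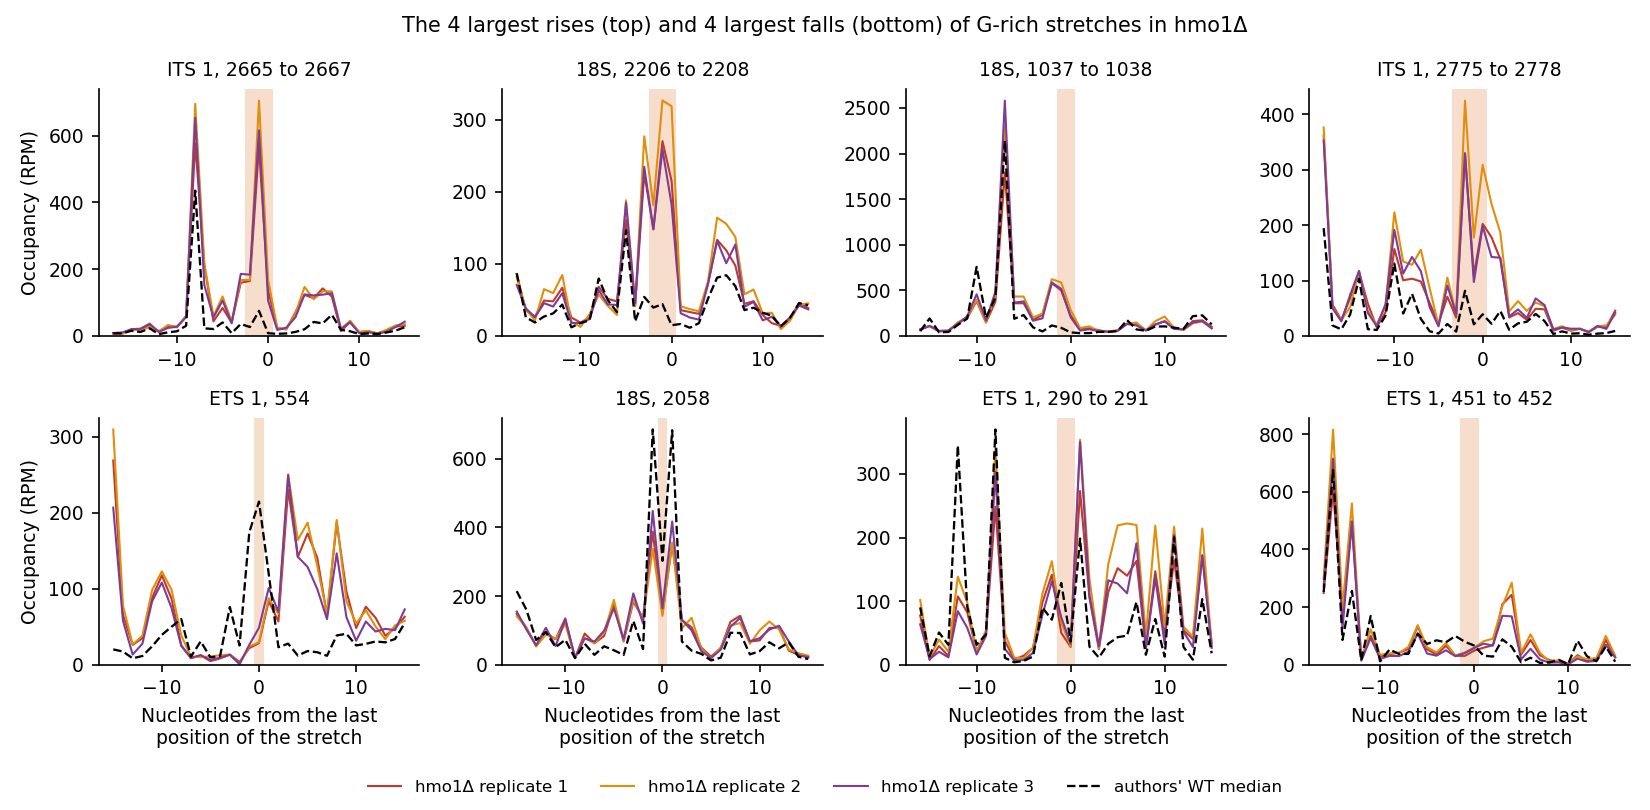
Occupancy in RPM (vertical axis) at the 4 G-rich stretches with the largest rises (top) and the 4 with the largest falls (bottom), by distance in nucleotides from the last position of the stretch (horizontal axis), as lines for the 3 *hmo1Δ* replicates and a dashed line for the authors' WT median, with the stretch shaded. At positions 2665 to 2667 the replicates summed to 870 to 1041 RPM against 111 RPM in WT, while at position 554 they lay at 28.6 to 48.7 RPM against 215 RPM.

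The longest stretch, positions 4625 to 4640 in 25S, holds 13 G in 25 nucleotides.
25S, positions 4625 to 4640 (chrXII:462930-462954): GaGuaGGcaGGcGuGGaGGucaGuG
It summed to 3127, 2367 and 2444 RPM in *hmo1Δ* replicates 1, 2 and 3, against 1526 RPM in WT, a 1.73-fold rise. The first stretch along the gene with 7 G in a window was positions 1089 to 1098 in 18S.
18S, positions 1089 to 1098 (chrXII:466472-466490): uccGGaGaGGGaGccuGaG
It held 2095, 2100 and 1898 RPM in *hmo1Δ*, against 1744 RPM in WT, which is 1.16-fold. The 11 stretches with 7 G in a window ranged from 0.968-fold (positions 1572 to 1585) to 4.52-fold (positions 6681 to 6690). The latter lie among the residues annotated as cleaved by Rnt1.

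Single positions were named by their occupancy and by the difference in RPM. The 4 largest rises all fell on an A directly after a G. Such an A ends 67 of the 683 G-rich positions. Their WT median was 274 RPM, against 132 RPM over all G-rich positions, which favours them in a ranking by RPM. Position 3728 in 25S had 984, 1332 and 981 RPM in *hmo1Δ* replicates 1, 2 and 3, against 504 RPM in WT with a coefficient of variation of 16.9% in the authors' table. Position 3589 in 25S had 560, 767 and 694 RPM in *hmo1Δ* and 186 RPM in WT (authors' WT coefficient of variation 5.08%). The mean over WT was 2.18-fold at position 3728 and 3.62-fold at position 3589. Their stretches and those of positions 106 and 626, which had the largest spacer rises beside position 2666, are shown for the letters that lead up to them.
25S, positions 3724 to 3730 (chrXII:463840-463855): uuGuGGGuaGGGGaau
25S, positions 3588 to 3590 (chrXII:463980-463991): uuGGcGaGaGac
ETS1, positions 103 to 110 (chrXII:467460-467476): aacGGuGGaGaGaGucG
ETS1, positions 625 to 626 (chrXII:466944-466954): aGcaaGaGGGa
Position 106 had 728, 667 and 539 RPM in *hmo1Δ*, against 115 RPM in WT, where the authors' WT coefficient of variation was 31.8%. Position 626 had 483, 520 and 487 RPM in *hmo1Δ* and 146 RPM in WT, a log2 rise of 1.76. At position 2666, where *hmo1Δ* had 567, 705 and 616 RPM, WT had 75.5 RPM.

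The 4 G-rich positions with the highest occupancy in *hmo1Δ* changed in different directions. Position 1031 in 18S had 1793, 2298 and 2580 RPM in *hmo1Δ* replicates 1, 2 and 3, against 2140 RPM in WT, so that WT lay between the replicates. Without replicate 3 the direction turned, with a mean log2 ratio of -0.08. Position 5158 in 25S had 1931, 1691 and 2171 RPM in *hmo1Δ* and 2337 RPM in WT, a 1.21-fold fall, and was also among the largest falls in RPM. Position 5860 in 25S rose to 1370, 1457 and 1410 RPM in *hmo1Δ*, against 1039 RPM in WT, and position 3489 in 25S to 911, 1248 and 1073 RPM, against 895 RPM in WT. The rise at position 3489 is small beside the spread between replicates. Among the other falls, position 2495 near the 3′ end of 18S had 752, 867 and 934 RPM in *hmo1Δ* and 1507 RPM in WT, position 1063 in 18S had 346, 437 and 418 RPM and 788 RPM in WT, and position 1254 in 18S had 888, 540 and 733 RPM and 1147 RPM in WT. In the spacers, after position 554, the largest falls were at positions 496 and 503 in ETS1. They had 280, 314 and 344 RPM in *hmo1Δ* against 457 RPM in WT, and 189, 212 and 185 RPM against 295 RPM in WT. Both lie in 1 stretch, positions 496 to 507, which as a whole held 0.983-fold the WT occupancy with replicates on both sides.

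Neighbouring G-rich stretches within 18S changed by different amounts. These and the ETS2 stretches were singled out after their values were seen. Positions 1030 to 1031, position 1034 and positions 1037 to 1038 overlap in sequence.
18S, positions 1030 to 1031 (chrXII:466539-466549): cGauGGuaGGa
18S, position 1034 (chrXII:466536-466545): GGuaGGauaG
The first held 2170, 2747 and 3066 RPM in *hmo1Δ*, against 2563 RPM in WT. Position 1034 had 174, 202 and 168 RPM in *hmo1Δ* and 95.2 RPM in WT, a 1.90-fold rise, and the 5.99-fold rise at positions 1037 to 1038 followed within 4 nucleotides. The longest ETS2 stretch was positions 6681 to 6690, within the residues cleaved by Rnt1.
ETS2, positions 6681 to 6690 (chrXII:460880-460898): cuGGcaGGaGccGGGGccu
They summed to 913, 807 and 802 RPM in *hmo1Δ* replicates 1, 2 and 3, against 186 RPM in WT, a 4.52-fold rise.

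Low values show how much RPM 1 read adds, and this gives the depth. The median G-rich position held 682, 394 and 485 reads in replicates 1, 2 and 3, for a counting error of 3.83%, 5.04% and 4.54%. The median coefficient of variation over the 3 *hmo1Δ* replicates was 10.8% at G-rich positions and 9.78% at other positions of the mature rRNA regions, and 14.6% and 15.6% in the spacers, where positions hold fewer reads. For WT, the authors' values had a median of 10.7% at G-rich positions and 9.93% at the others of the whole gene. No G-rich position was at 0 in any replicate or in WT, and 1 lay after the T1 terminator.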

How the data were processed

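Per the paper and the submitters' processing notes, duplicate reads were collapsed by their UMI (fqtrim), adaptors were removed (cutadapt 3.4), and the authors counted 3′ ends (BEDTools 2.28.0) after alignment with STAR 2.7.1a to R64-1-1. How reads were assigned among rDNA copies is not given in the sources used here. The deposited table holds, for each position of the 35S gene, the base, the region and RPM, which the authors scaled to a total of 1000000 up to position 6739. The WT median (RPM) and the WT coefficient of variation, a score in percent, are columns the authors computed. The authors' columns of mean change, ratio and p-value were not used, nor were 3 columns of single WT samples of another series. Read totals over the whole gene, positions after T1 included, were worked back from the RPM of 1 read and were 1985964 to 3704662.5. In each replicate 99.9% or more of values were whole multiples of 1 read (tolerance 0.001).

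Windows, stretches, log2 ratios (pseudocount 1 RPM) and means with SD over replicates were computed in Python 3.11.15 with numpy 2.4.6 and pandas 2.3.3, with figures in matplotlib 3.10.9, and tested on simulated profiles. No count test was run, since *hmo1Δ* is the only group of samples. Replicates came from separate cultures of 1 strain. The members, lists and comparisons were chosen with earlier results of these data known. Named were, among stretches with 100 RPM or more and all replicates on 1 side of WT, the 4 largest rises and falls, the longest stretch and the first with most G, and single positions, the 4 highest, the 4 largest rises and falls in RPM and the 3 largest of each in the spacers. Alternatives varied the pseudocount, filter, threshold, window, scaling, matching and replicates.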

Additional observations from a re-analysis of the deposited data

How the results depend on the processing

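The difference between G-rich and other positions stayed positive over the whole gene, in the spacers and in the mature rRNA regions under each alternative tried. By region, only the pseudocount of 10 RPM, the left-out replicates and, for ETS2, the positions after T1 were varied, and it stayed positive there too. With each replicate left out in turn it was 0.33 to 0.39 on the log2 scale over the whole gene, 0.42 to 0.45 in the spacers and 0.32 to 0.38 in the mature rRNA regions, 0.15 to 0.16 in ETS1, 0.40 to 0.47 in 18S, 1.01 to 1.12 in ITS1, 0.28 to 0.34 in 25S and 0.60 to 0.73 in ETS2. The slope per G was then 0.12 to 0.15, the log2 ratio of the shares 0.22 to 0.27 (0.25 with all replicates), the U-rich split 0.13 in each case, and 411 to 442 positions were higher and 155 to 176 lower. The spacer difference moved most, to 0.37 at 10 RPM or more, 0.55 with 4 or more G, 1.26 with 6 or more G, 0.57 with a window that ended 1 position before, 0.58 when matched by WT quintile, 0.13 when matched by *hmo1Δ* quintile and 0.21 with 1 value per stretch. Over the whole gene it was 0.47 with 6 or more G, 0.47 matched by WT quintile and 0.30 with 1 value per stretch, and in the mature rRNA regions 0.45 matched by WT quintile. The U-rich split was 0.12 with a pseudocount of 10 RPM, 0.16 with 4 or more G, 0.014 with 6 or more G, 0.12 with the earlier window, 0.14 matched by WT quintile, 0.27 with 1 value per stretch and 0.093 with 5 or more U. With 4 or more G, 1049 positions were higher and 428 lower of 1842, and with 6 or more G 118 and 31 of 184, where the log2 ratio of the shares was 0.33. Beyond 2 WT coefficients of variation, chosen after seeing the data, 48 were lower. With 1 replicate left out, the A-rich difference was -0.049 to 0.0050, turning positive without replicate 2, and position 1031 was -0.076 to 0.19, turning negative without replicate 3. The causes of these shifts were not tested. No paired analysis was possible because the only samples are of 1 group. Depth limits the G-rich spacer positions of lowest occupancy, where 3 reads correspond to 0.811 to 1.51 RPM.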

Other observations

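The letters that end at a position were looked at after the named positions had been seen, so the values here are a description. Of the 15 named positions, 8 were an A directly after a G, while GA ends at 7.43% of all positions with a full window. Of the 67 of these that were G-rich, which include the 8 named ones, 49 were higher in all 3 replicates and 13 lower. Over all G-rich positions 58.4% were higher and 20.9% lower. At the 442 that were not G-rich, 187 were higher and 188 lower, with a region-centred log2 ratio of -0.06 ± 0.06 (SD, n = 3). GAGA, read on the transcript strand, ends at 0.599% of all positions with a full window. At the 7 of these that were G-rich, all 3 *hmo1Δ* replicates lay above WT, and they stood 1.39 ± 0.10 on the log2 scale above the other positions of their region (SD, n = 3). These 7 include positions 106, 2666 and 3589, which were named for their rises, so the count and the mean are partly set by that choice. At the 34 that were not G-rich, 24 were higher and 7 lower, with 0.43 ± 0.07. The longer GAGAGA, which contains GAGA, ends at 6 positions of the gene. Of these, 3 were G-rich (positions 106, 2666 and 3589) and 3 were not. Position 557 in ETS1 had 231, 250 and 249 RPM in *hmo1Δ* replicates 1, 2 and 3, against 27.9 RPM in WT. Position 183 in ETS1 had 339, 376 and 297 RPM in *hmo1Δ* and 120 RPM in WT, and position 6702 in ETS2 had 12.4, 8.06 and 7.47 RPM in *hmo1Δ* and 5.44 RPM in WT. All 3 replicates were above WT at each of the 6 positions, all but position 3589 in spacers. The same held at 44.2% of all positions and 65.8% of all spacer positions. Positions 106, 2666 and 3589 had been named as rises with all replicates above WT, so their side was fixed by that choice. GGGGA ended at 12 G-rich positions, of which 9 were higher and 1 lower (58.4% of all G-rich positions were higher), with a median of 632 ± 30.7 RPM in *hmo1Δ* (SD, n = 3) and 431 RPM in WT.

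The other bases also differed by offset. U at offsets -10 to -1 went with a log2 difference of -0.16 ± 0.03 (SD, n = 3), the counterpart of the G values. Downstream of the position, C at offsets 1 to 6 went with 0.15 ± 0.02 over the whole gene and A with -0.14 ± 0.02, while G gave 0.00 ± 0.01. In the spacers alone, C at these offsets gave 0.18 ± 0.02 and A -0.17 ± 0.02. These bases lie outside the window that defined the G-rich positions.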
